A study of Mus musculus with 6 samples.

Results

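Chromatin regulators of germinal centre B cells are described here through 10 genes that write, erase or read marks on histones and DNA, or that move nucleosomes. They were chosen by name, as modifiers that are often mutated in germinal centre lymphoma or that the reaction needs. All 10 were found among the 55421 genes listed in the normalized count table, and all 10 passed the filter on low counts that left 13562 genes for testing. RNA was sequenced from 3 SFR KO and 3 wildtype libraries. SFR KO mice carry a deletion across the SLAM family receptor genes that begins within Cd244 and ends within Slamf6, and wildtype mice lack it. Both groups were C57BL/6 mice with the AID-GFP reporter, which marks cells that have switched on the antibody-mutating enzyme AID. Mice received the hapten NP on ovalbumin at a ratio of 18 with alum, and GFP-positive spleen cells were sorted on day 9; age and sex are not given in the labels used here. The sort rests on the reporter, so the labels name these cells germinal centre B cells by AID activity. The labels do not say whether the libraries of a group came from different mice, and the p-values therefore cover the spread among these libraries alone, which may be technical.

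In germinal centres, B cells alternate between division with mutation of their antibody genes and selection by T cells. Chromatin regulators hold these states apart while keeping them reversible. EZH2 and its Polycomb partners silence genes of cell cycle arrest and plasma cell fate. KMT2D, CREBBP and EP300 keep enhancers open. HDAC3, in a complex with corepressors, and KDM1A, in the CoREST complex, serve repression by BCL6. DNMT1 copies DNA methylation at each division, the TET enzymes remove it, and ARID1A guides the BAF nucleosome remodeller.

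The libraries held 28269310 to 33053024 reads assigned to genes. The 7 genes of the deletion checked the labels, with a summed level of 5.47 to 16.8 normalized reads in SFR KO libraries and 10457 to 20669 in wildtype libraries. The 9 germinal centre B cell markers, none of them at 0 in all libraries, had a summed level of 283711 to 300467 in SFR KO and 291740 to 299902 in wildtype libraries. Markers of resting B cells summed to 9096 to 16894 in SFR KO against 14150 to 18302 in wildtype libraries, and 9 T cell markers, mostly Lck, to 4727 to 6900 in SFR KO against 4315 to 4657 in wildtype libraries. The T cell sum follows Lck, which averaged 4498 normalized reads against 91.7 for Cd3e, 61.7 for Cd3d and 161 for Cd4. Cd3e was at 1.67 and Cd3d at 1.69 times wildtype, without overlap (limma adjusted p = 0.214 and 0.216). With overlap, Cd4 was at 1.75 times (0.234) and Cd8a, alone lower among the 9, at 0.743 times (0.592). These genes were named after their values were seen. Which cells the Lck reads came from was not tested. Among 8 neutrophil and myeloid markers and 6 red cell markers, sums ran from 816 to 2427 and from 1560 to 4225 in SFR KO, against 1103 to 5037 and 1435 to 7886 in wildtype libraries. Plasma cell markers, 6 genes led by Jchain, summed to 32630 to 33227 in SFR KO and 29586 to 30242 in wildtype libraries, without overlap. Mitochondrial transcripts took 2.45% to 2.47% of reads in SFR KO and 1.51% to 2.12% in wildtype libraries. Of the 41 tested markers of these 6 cell types limma and edgeR called 0, against 0.465% and 0.221% of all tested genes. At an unadjusted limma p under 0.05 there were 12 of the 41, a larger share than the 16.1% of all tested genes under it. DESeq2 called 3 markers, where it called 4.53% of all genes. All 3 were higher in SFR KO: Gcsam, a germinal centre B cell marker (DESeq2 adjusted p = 0.0097), Jchain (0.0104) and Lck (0.0164), named after their values were seen. The part of these cell types in the results on chromatin regulators was not tested.

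The first question was whether any of the 10 regulators differed between SFR KO and wildtype cells. No member passed the threshold of limma, a linear model on log2(normalized count + 1) with a Benjamini-Hochberg adjusted p under 0.05, where 0.465% of all tested genes did and 0.31% did so with a lower level in SFR KO. By edgeR 0 members were called, against 0.221% of all genes, and by DESeq2 1 member, Kmt2d, against 4.53%. The authors' deposited table also has 1 member, Kmt2d, with an adjusted p under 0.05, where 4.8% of its genes with such a p-value passed, 3.01% lower and 1.79% higher. Limma called Kmt2d as the 1 member under 5 other settings: with no filter, where 0.523% of all genes were called, with a robust prior (1.19%), with sample weights (4.65%), with length trends removed (1.03%) and without SFR KO 1 (3.54%). With GC trends removed it called 0 members and 0.14% of all genes. At an unadjusted limma p under 0.05 there were 3 members, Kmt2d, Arid1a and Tet3, where 16.1% of all genes were under it and 9.07% were under it with a lower level in SFR KO. For these 3 genes the SFR KO and wildtype ranges were apart, all lower in SFR KO libraries, against 11.9% of all genes apart in that direction and 21.7% in either. In all, 8 of the 10 differences were below 0, against 50.7% of those of all genes. Their median was -0.09 on the log2 scale, and that of all tested genes -0.00. In bulk RNA of a sorted population, fewer cells of a type and less RNA per cell cannot be told apart.

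**Figure D1:**
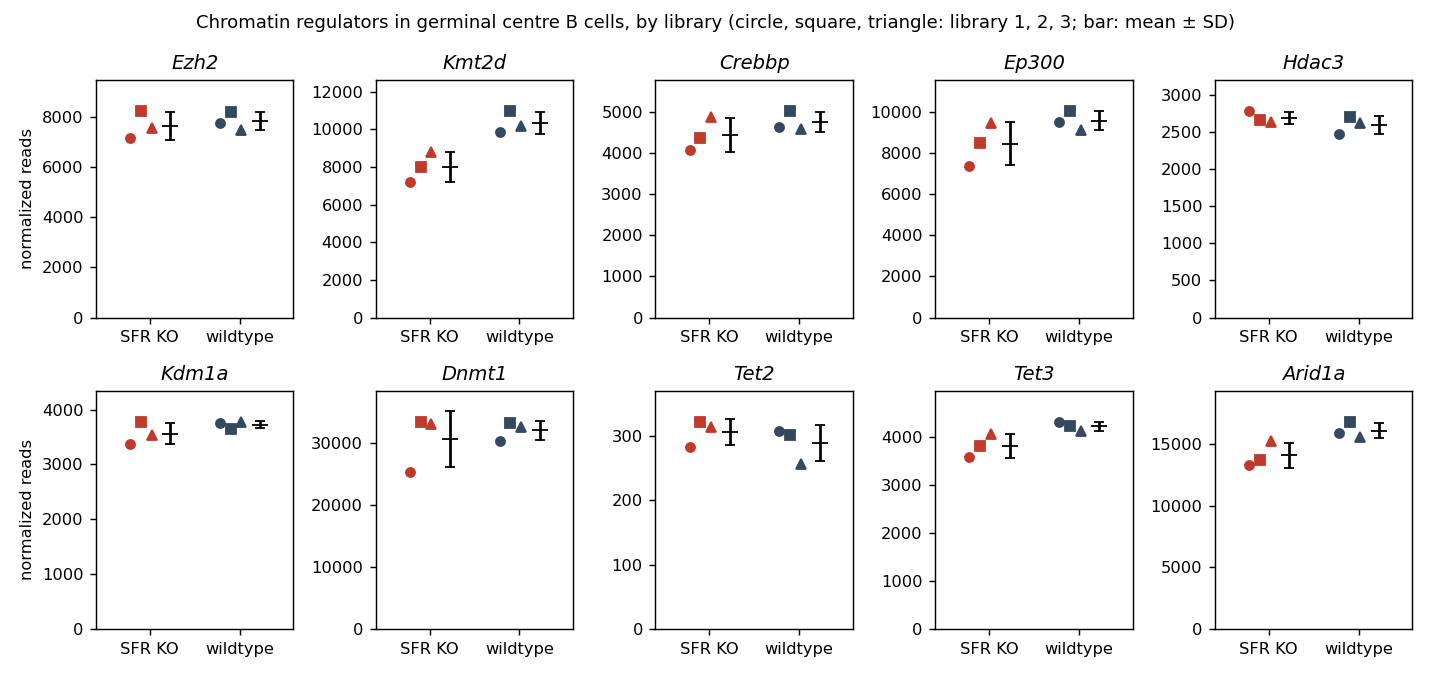
Normalized reads of each chromatin regulator (vertical axes, starting at 0) in the SFR KO libraries on the left and the wildtype libraries on the right; symbols mark library 1, 2 and 3, and bars the mean ± SD (n = 3). Kmt2d, Arid1a and Tet3 have groups that do not overlap, and Dnmt1 has 1 low SFR KO library.

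Among the enzymes that write histone marks, Kmt2d stood furthest from equality. Kmt2d (ENSMUSG00000048154; chromosome 15, 98831669 to 98871204, minus strand, GRCm38) encodes a histone H3 methyltransferase of the COMPASS family that marks enhancers, and it is among the most often mutated genes of germinal centre lymphoma. It had 7205, 8017 and 8813 normalized reads in SFR KO libraries 1, 2 and 3, against 9845, 10980.3 and 10168 in wildtype libraries 1, 2 and 3. Every SFR KO library lay below every wildtype library. The level was 0.774 times wildtype (95% interval 0.688 to 0.870), or -0.37 ± 0.08 (SE) on the log2 scale (limma adjusted p = 0.0659). DESeq2 called it (adjusted p = 0.00026) and edgeR did not (adjusted p = 0.0758). In the authors' deposited table its log2 difference was -0.37 with an adjusted p = 0.000203. Leaving out SFR KO 1 brought the limma adjusted p to 0.0337 at a log2 difference of -0.30, and leaving out any other library gave 0.0666 to 0.227.

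The Kmt2d transcript is long and rich in G and C, and so is the stretch of DNA before its start. RefSeq sequence (GRCm38.p6) of the 250 bases before an annotated start is shown for Kmt2d and Arid1a, the members with the lowest log2 differences, and for Dnmt1, the most abundant member, of whose windows the printed ones were the poorest in CpG among the members; capitals mark CpG, the dinucleotide that DNMT1 methylates and TET enzymes act on. The Kmt2d window is chr15:98871206-98871455, the Arid1a window, before 1 of its 2 annotated starts, chr4:133756770-133757019, and the Dnmt1 windows, before 2 of its 3 annotated starts, are chr9:20959889-20960138 and chr9:20952980-20953229, all on the minus strand.
Kmt2d: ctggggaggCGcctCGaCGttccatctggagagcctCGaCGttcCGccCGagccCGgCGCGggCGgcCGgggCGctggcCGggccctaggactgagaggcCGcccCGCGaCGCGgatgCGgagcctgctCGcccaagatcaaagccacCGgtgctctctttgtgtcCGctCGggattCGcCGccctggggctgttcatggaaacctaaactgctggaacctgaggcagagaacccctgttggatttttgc
Arid1a: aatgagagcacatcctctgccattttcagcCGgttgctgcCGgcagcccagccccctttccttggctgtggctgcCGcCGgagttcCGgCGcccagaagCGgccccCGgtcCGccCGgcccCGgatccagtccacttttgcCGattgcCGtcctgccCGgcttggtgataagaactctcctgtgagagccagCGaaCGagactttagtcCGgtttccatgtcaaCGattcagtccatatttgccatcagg
Dnmt1 upstream start: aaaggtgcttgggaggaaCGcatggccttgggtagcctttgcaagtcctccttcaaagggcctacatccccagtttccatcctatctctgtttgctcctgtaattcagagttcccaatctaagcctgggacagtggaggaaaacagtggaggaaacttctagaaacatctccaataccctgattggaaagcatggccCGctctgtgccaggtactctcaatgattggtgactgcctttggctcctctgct
Dnmt1 second start: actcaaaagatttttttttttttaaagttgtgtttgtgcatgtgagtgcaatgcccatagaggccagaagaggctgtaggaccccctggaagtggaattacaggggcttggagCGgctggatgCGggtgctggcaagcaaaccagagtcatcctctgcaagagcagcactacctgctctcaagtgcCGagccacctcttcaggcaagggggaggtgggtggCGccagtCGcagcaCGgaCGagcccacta
The Kmt2d window held 26 CpG and the shown Arid1a window 18, against 2 and 7 in the shown Dnmt1 windows and a median of 6 over 32851 windows of the same length. The third Dnmt1 window, which overlaps an exon and is not printed, held 26, and the second Arid1a window, also not printed, held 33. Windows were found for 9 members, and outside Dnmt1 each held 17 to 51 CpG, the most in Tet2. A match to GGGCGG on either strand was present in 8 of the 12 windows of these members and in 32.7% of all windows, and a match to CCAAT in 5 of 12 and in 33.8%. Reads were counted per gene, so which start was used was not measured.

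Ezh2 (ENSMUSG00000029687; chromosome 6, 47530139 to 47595341), the catalytic subunit of Polycomb repressive complex PRC2, was close to equality. Its normalized reads were 7139.9, 8242 and 7544 in SFR KO libraries and 7759, 8199.6 and 7492 in wildtype libraries, so that the groups overlapped. The ratio was 0.977 with a 95% interval of 0.886 to 1.08 (limma adjusted p = 0.843), an interval that leaves room for a difference of either sign. Removing SFR KO 1 turned the sign of this small difference to 0.01 on the log2 scale.

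Crebbp (ENSMUSG00000022521; chromosome 16, 4081328 to 4213997) and Ep300 (ENSMUSG00000055024; chromosome 15, 81585351 to 81652077) encode paralogous acetyltransferases that activate enhancers. Crebbp had 4068, 4367 and 4876 normalized reads in SFR KO against 4625, 5019 and 4574 in wildtype libraries. Its groups overlapped, with a log2 difference of -0.10 ± 0.07 (limma adjusted p = 0.551) that was -0.04 without SFR KO 1, -0.17 without SFR KO 3 and -0.06 without wildtype 2. Ep300 had 7397, 8484 and 9493 normalized reads in SFR KO against 9515, 10070.5 and 9157 in wildtype libraries. SFR KO 3 lay within the wildtype range while SFR KO 1 and 2 lay below it, and the log2 difference was -0.19 ± 0.08 (adjusted p = 0.32). Without SFR KO 1 the Ep300 difference was -0.09, and without SFR KO 3 it was -0.27.

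The erasers of histone marks were close to equality. Hdac3 (ENSMUSG00000024454; chromosome 18, 37935844 to 37955016) is the deacetylase recruited by BCL6 through its corepressors. It had 2784, 2654 and 2628 normalized reads in SFR KO libraries, against 2465, 2695 and 2621 in wildtype libraries, a ratio of 1.04 (95% interval 0.951 to 1.13, limma adjusted p = 0.699). It was 1 of 2 members above 0, by a log2 difference of 0.05 that was 0.03 without SFR KO 1, 0.02 without wildtype 1 and 0.08 without wildtype 2. Kdm1a (ENSMUSG00000036940; chromosome 4, 136550540 to 136602723), the demethylase LSD1, had 3379.8, 3766 and 3526 normalized reads in SFR KO libraries, against 3748, 3645 and 3770.3 in wildtype libraries. Its groups overlapped, with a ratio of 0.955 (0.877 to 1.04, limma adjusted p = 0.602). Leaving out SFR KO 1 put its log2 difference of -0.07 at -0.03, and leaving out SFR KO 2 put it at -0.11. Kdm1a shares exonic positions with Luzp1 on the other strand, and no source used here gives the strand setting of the counting. Luzp1 had a mean of 351 normalized reads, so the Kdm1a value is uncertain. Ezh2 shares exonic positions with the noncoding RNA Gm26625 of the other strand and carries the same limit. The antisense RNA opposite Tet2, Gm42567, had 0 normalized reads.

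Among the enzymes of DNA methylation, Dnmt1 (ENSMUSG00000004099; chromosome 9, 20907209 to 20959888) varied most between SFR KO libraries. It had 25392, 33387 and 33137 normalized reads in SFR KO and 30277, 33199 and 32655 in wildtype libraries. SFR KO 1 was below all others, SFR KO 2 was above the wildtype range and SFR KO 3 within it. The log2 difference was -0.07 ± 0.10 (limma adjusted p = 0.768) and turned to 0.05 without SFR KO 1. That library was also the lowest of all 6 for 12 of 15 S phase and division genes, among them Mki67, a marker of cycling cells, with 42712 normalized reads in SFR KO 1 against 62044 to 71884 in the other 5 libraries. It was the lowest of all 6 for 8 of the 10 members as well, where 22.3% of all tested genes had their lowest value there. Among the SFR KO libraries alone it was the lowest for 9 of 10 members, against 40.0% of all tested genes and 42.7% of those averaging 200 or more normalized reads. The part of dividing cells in the Dnmt1 values was not tested.

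The TET enzymes oxidise methylated cytosine. Tet3 (ENSMUSG00000034832; chromosome 6, 83362373 to 83459084) had 3583, 3816 and 4075 normalized reads in SFR KO, against 4320.2, 4238 and 4127 in wildtype libraries. All SFR KO values were below all wildtype values, by a log2 difference of -0.15 ± 0.06 that missed the threshold (limma adjusted p = 0.255). Tet2 (ENSMUSG00000040943; chromosome 3, 133463679 to 133545139), a frequent target of mutation in blood cancers, was the lowest member, with 283, 322 and 315 normalized reads in SFR KO and 308, 302 and 257 in wildtype libraries. The groups overlapped. Its ratio was 1.06 with the widest interval of the members in the fit, 0.884 to 1.28 (limma adjusted p = 0.774). The Tet2 log2 difference of 0.09 was 0.14 without SFR KO 1, 0.05 without SFR KO 2, 0.14 without wildtype 1 and 0.005 without wildtype 3.

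Arid1a (ENSMUSG00000007880; chromosome 4, 133679008 to 133756769), the DNA-binding subunit of the canonical BAF remodeller, had 13279.6, 13663 and 15230.5 normalized reads in SFR KO, against 15868, 16759 and 15556 in wildtype libraries. The groups did not overlap, although SFR KO 3 came close to the lowest wildtype library. The ratio was 0.874 (95% interval 0.794 to 0.962), or -0.19 ± 0.06 on the log2 scale (limma adjusted p = 0.177, DESeq2 adjusted p = 0.0634). It was -0.19 in the authors' deposited table, with an adjusted p = 0.0597.

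**Figure D2:**
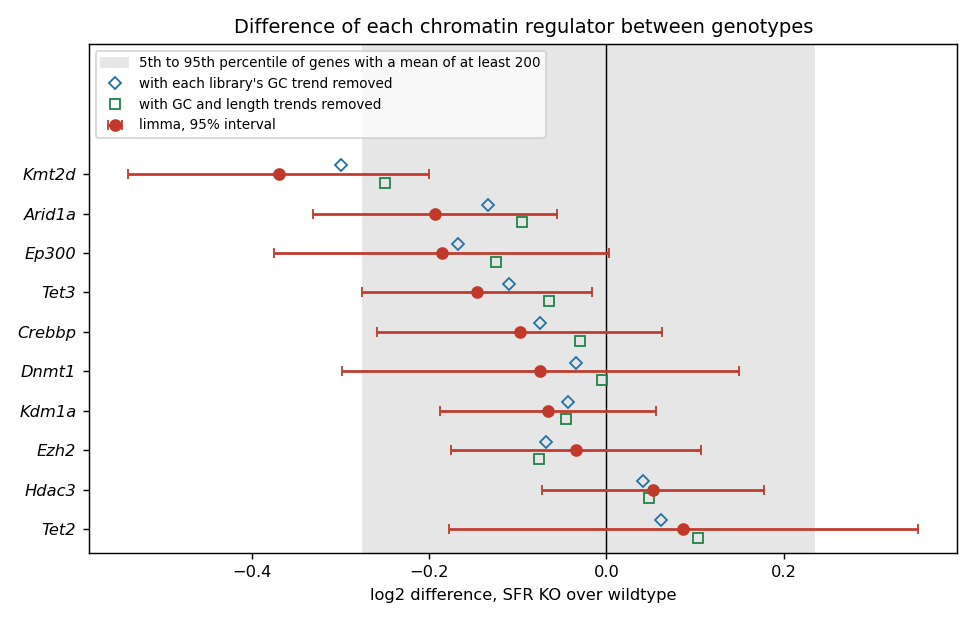
Log2 difference of SFR KO over wildtype for each chromatin regulator (horizontal axis), with limma's 95% interval; open symbols give the value after removal of library trends with GC content or with GC content and length, and the grey band spans the 5th to 95th percentile of 8924 genes averaging 200 or more normalized reads. Kmt2d is the member furthest below 0 and lies outside the band.

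Among 8924 genes averaging 200 or more normalized reads, the 5th percentile of the log2 difference was -0.27 and the 95th was 0.23. Kmt2d was the single member outside this range. Among protein-coding genes at that level, the log2 difference was lower at higher GC content of the longest transcript (Spearman's rho -0.407 across 8595 genes of the same libraries, which are not independent replicates). It was less related to transcript length (rho -0.116). Kmt2d is 58.4% GC and 19823 bases long and Arid1a 56.7% GC, where the median of those genes was 49.2% GC and 3498 bases, and Ezh2 and Tet2, at 44.4% and 45.4%, stood nearer to or above 0. The members did not all follow this order. Dnmt1, at 54.0% GC, and Kdm1a, at 51.7%, were at -0.07, while Ep300, at 51.1%, was at -0.19. With the GC trend of each library removed, the log2 difference of Kmt2d was -0.30 (limma adjusted p = 0.155), that of Arid1a -0.13 and that of Tet3 -0.11, and 9 of 10 members, all but Ezh2, came closer to 0. Removal of both GC and length trends left Kmt2d at -0.25 (adjusted p = 0.0955) and Arid1a at -0.10. Whether these trends reflect the libraries or the cells was not tested.

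**Figure D3:**
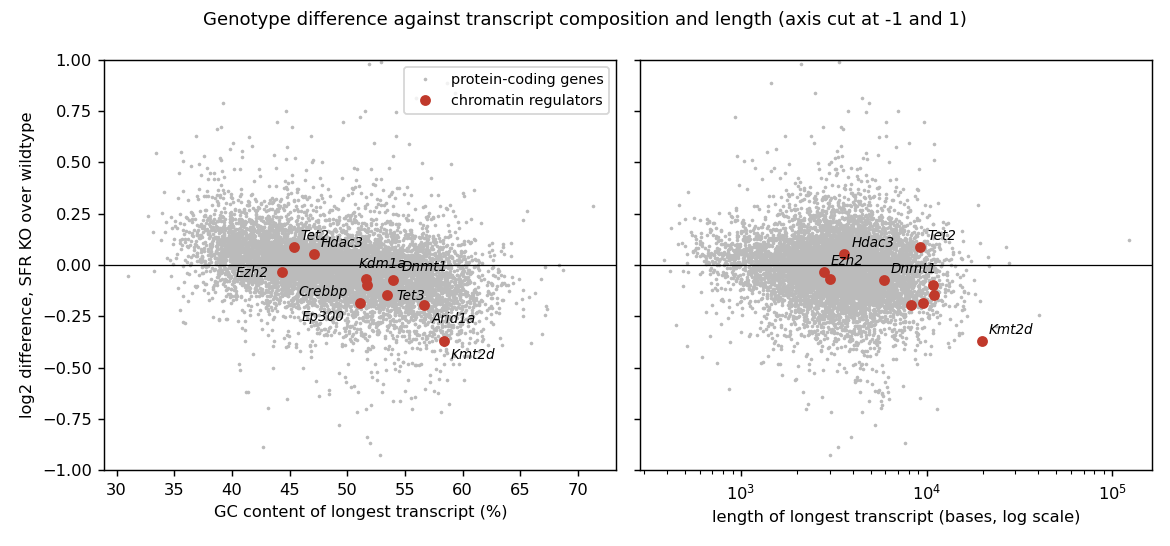
Log2 difference of SFR KO over wildtype (vertical axis, cut at -1 and 1, which leaves out 15 of 8595 genes) against GC content in percent (left) and length in bases on a log scale (right) of the longest transcript, for protein-coding genes averaging 200 or more normalized reads (grey) and the 10 chromatin regulators (red). Kmt2d lies at high GC content and at the long end, and Tet2 and Hdac3 lie above 0 at lower GC content.

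The members spanned a wide range of levels. Per kilobase of the longest transcript, Dnmt1 was the highest, at 5219 ± 774.4 normalized reads in SFR KO and 5459 ± 264.7 in wildtype libraries (mean ± SD, n = 3 each). Ezh2 followed with 2742 ± 199.99 in SFR KO and 2805 ± 128.2 in wildtype libraries. Arid1a, Kdm1a, Ep300, Hdac3, Kmt2d, Crebbp and Tet3 came next in that order of mean level, and Tet2 was last with 33.4 ± 2.27 in SFR KO and 31.5 ± 3.04 in wildtype libraries. The ranges over the 6 libraries overlapped between the neighbours Ep300 and Hdac3, Kmt2d and Crebbp, and Crebbp and Tet3. Within libraries, Ep300 was above Hdac3 in 5 of 6, Kmt2d above Crebbp in 4 of 6 and Crebbp above Tet3 in 6 of 6. The other neighbours did not overlap, the widest step being from Tet3 to Tet2, at 11.4-fold. Per kilobase, Kmt2d stood at 404.2 ± 40.6 in SFR KO and 521.2 ± 29.5 in wildtype libraries, and Crebbp at 410.1 ± 37.8 in SFR KO and 438.0 ± 22.5 in wildtype libraries.

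**Figure D4:**
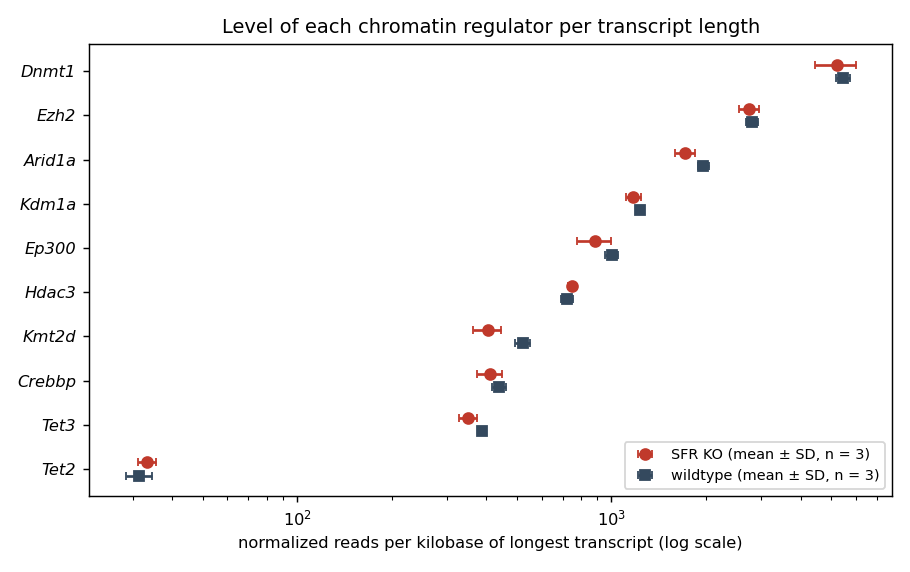
Normalized reads per kilobase of the longest transcript (horizontal axis, log scale) for each chromatin regulator, with SFR KO above wildtype in each row and bars for the SD (n = 3). Dnmt1 and Ezh2 are the highest and Tet2 the lowest, 11.4-fold below Tet3.

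Ratios of paralogs within a library, per kilobase, are given as a description. Kmt2d was 1.66 ± 0.0879 times Kmt2c, a second enhancer methyltransferase, in SFR KO and 1.699 ± 0.0567 times in wildtype libraries (mean ± SD, n = 3 each), with overlapping groups. Ep300 was 2.15 ± 0.0825 times Crebbp in SFR KO and 2.29 ± 0.0348 times in wildtype libraries, and these ratios did not overlap. Tet3 was 10.5 ± 0.478 times Tet2 in SFR KO and 12.4 ± 0.986 times in wildtype libraries, again without overlap. Taken alone, the groups of Ep300, Crebbp and Tet2 overlapped and those of Tet3 did not. How often ratios of other gene pairs were apart was not measured. Among single tested genes, 21.7% were apart in either direction. Ezh2 was 13.7 ± 1.30 times Ezh1, the PRC2 enzyme of resting cells, in SFR KO and 14.0 ± 0.249 times in wildtype libraries. Arid1a was 3.22 ± 0.344 times Arid1b in SFR KO and 3.08 ± 0.0468 times in wildtype libraries, and the groups of these last ratios overlapped.

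The partners of the members were read from 7 lists of other chromatin regulators, of which 93 of 94 genes could be tested. Limma called 1 of them and edgeR 1, against 0.465% and 0.221% of all tested genes. DESeq2 called 10, of which 9 were lower in SFR KO, against 4.53% of all genes. At an unadjusted limma p under 0.05, 20 were lower and 7 higher, where 9.07% of all tested genes were lower and 7.04% higher. Together these were 29.0% of the 93, against 16.1% of all tested genes. The median log2 difference of the 93 genes was -0.07, and that of genes averaging 200 or more normalized reads -0.02. Of the 93, 63 (67.7%) were below 0, against 50.7% of all tested genes. Groups did not overlap for 29 of the 93 that were lower and 9 that were higher in SFR KO, against 11.9% and 9.78% of all genes. With GC trends removed the median of the 93 was -0.06. By list, those medians were -0.13 for COMPASS, -0.07 for acetyltransferases and readers, and -0.04 for NCoR and SIN3. They were -0.06 for CoREST and NuRD, -0.09 for DNA methylation, -0.07 for BAF and 0.02 for Polycomb.

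In the NCoR and SIN3 deacetylase list, which holds the corepressors that work with HDAC3, 5 of 9 genes were below 0 and the median was -0.04. Of all tested genes, 50.7% were below 0. At an unadjusted limma p under 0.05 there were 3 lower and 2 higher, 55.6% of the list against 16.1% of all tested genes.

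The COMPASS list had the lowest median of the 7, at -0.15, with 11 of 13 tested members (84.6%) below 0, against 50.7% of all tested genes. None was called by limma or edgeR. At an unadjusted limma p under 0.05 there were 3 (23.1%), against 16.1% of all tested genes. DESeq2 called 1 COMPASS gene, against 4.53% of all genes. That gene was Kmt2c, the closest relative of Kmt2d. It had 3397, 3754 and 3783 normalized reads in SFR KO libraries, against 4529, 4871 and 4376 in wildtype libraries, without overlap (log2 -0.33 ± 0.06, limma adjusted p = 0.0555). Its transcript is 47.6% GC, below that of Kmt2d, and with the GC trend removed its difference was -0.34 (limma adjusted p = 0.0998). With GC and length trends removed the Kmt2c difference was -0.29 (limma adjusted p = 0.0672). Setd1b, of the promoter methyltransferases, stood at -0.33 ± 0.11 (limma adjusted p = 0.212). Kat2a, an acetyltransferase of the SAGA complex, was at -0.33 ± 0.07 (adjusted p = 0.0613) and its paralog Kat2b at -0.19 ± 0.07 (0.212). With the GC trend removed Kat2a was at -0.27 (limma adjusted p = 0.173). The list of acetyltransferases and bromodomain readers had a median of -0.10 over 10 genes. Of these, 3 (30.0%) had an unadjusted limma p under 0.05, against 16.1% of all tested genes. In this list DESeq2 called 1, and limma and edgeR called 0.

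Polycomb genes beside Ezh2 had a median of 0.01 over 17 genes, with 5 below 0 (29.4%), against 50.7% of all tested genes. Limma and edgeR called 0 of them. At an unadjusted limma p under 0.05 there were 5 (29.4%), against 16.1% of all tested genes. Where DESeq2 called 4.53% of all genes, it called 2 of this list. One of them was Cbx2, a chromodomain subunit of the PRC1 complex, at -0.42 ± 0.10 (limma adjusted p = 0.0951). With the GC trend removed Cbx2 was at -0.36 (limma adjusted p = 0.171). The PRC2 core subunits Suz12 and Eed, named after their values were seen, were at 0.01 ± 0.05 and 0.12 ± 0.05.

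The CoREST and NuRD list, with the partners of Kdm1a, had a median of -0.13, with 12 of 15 (80.0%) below 0, against 50.7% of all tested genes. At an unadjusted limma p under 0.05 there were 7 (46.7%), against 16.1% of all tested genes. Chd4, the NuRD remodeller, was at -0.19 ± 0.05 (limma adjusted p = 0.139) and Phf21a, a CoREST subunit, at -0.20 ± 0.07 (0.195). In the BAF list 15 of 18 genes (83.3%) were below 0 with a median of -0.08. An unadjusted limma p under 0.05 was found for 3 (16.7%), near the 16.1% of all tested genes. Smarca2, an ATPase of BAF, was at -0.31 ± 0.08 (limma adjusted p = 0.109) and Smarcc2, a core subunit, at -0.20 ± 0.07 (0.2). In the DNA methylation list the median was -0.07 over 11 genes. Against 16.1% of all tested genes, 1 gene of this list (9.09%) had an unadjusted limma p under 0.05. It was Ogt, which encodes a glycosyltransferase that binds TET enzymes, at 0.26 ± 0.07 (limma adjusted p = 0.142), while Idh2, a mitochondrial isocitrate dehydrogenase, was at -0.15 ± 0.07 (0.338). In each of these last 3 lists limma and edgeR called 0 genes and DESeq2 called 1, where DESeq2 called 4.53% of all genes.

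**Figure D5:**
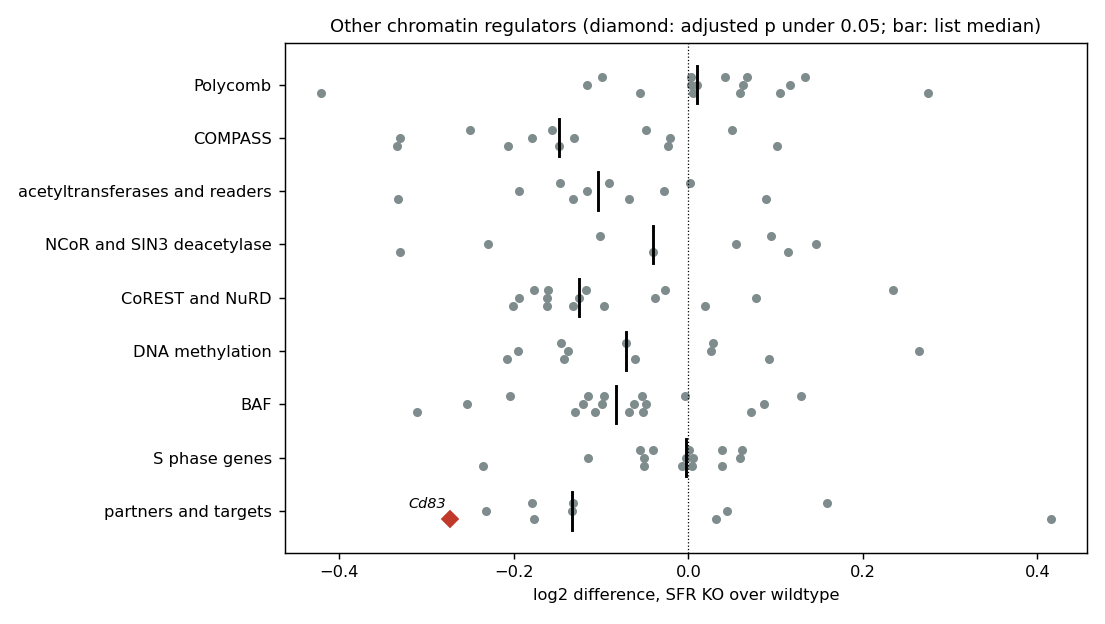
Log2 difference of SFR KO over wildtype (horizontal axis) for tested genes of 9 lists, with the median of all tested genes of the list as a bar and a gene called by limma as a red diamond; 2 genes are not plotted. Cd83 is the called gene shown, and the COMPASS median is the lowest, at -0.15.

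Of 15 S phase and division genes, which vary with Ezh2 and Dnmt1 in cycling cells, limma, edgeR and DESeq2 called 0. At an unadjusted limma p under 0.05 there were also 0, against 16.1% of all tested genes. Their median was -0.00. E2f8, a transcriptional repressor of the E2F family, was at -0.12 ± 0.06 (limma adjusted p = 0.413) and Mki67 at -0.24 ± 0.15 (0.472). Among 10 partners and repressed targets of the members limma called 1, against 0.465% of all tested genes. It was Cd83, a light zone activation marker, at 7513, 7673 and 7362 normalized reads in SFR KO against 8957, 9211 and 9077 in wildtype libraries (log2 -0.27 ± 0.04, limma adjusted p = 0.0464). Without SFR KO 1 its adjusted p was 0.016, and without any other library it was 0.117 to 0.19. The call was also lost with edgeR (adjusted p = 0.0527), and in limma with upper-quartile scaling (0.0545), with GC trends removed (0.0853) and with GC and length trends removed (0.0531). It held under 10 of 19 alternatives. The list's median was -0.13, with 6 of 10 genes (60.0%) below 0, against 50.7% of all tested genes. At an unadjusted limma p under 0.05 there were 3 lower and 1 higher (40.0%), against 16.1% of all tested genes. DESeq2 called 2 genes of this list, where it called 4.53% of all genes, and edgeR called 0. Groups did not overlap for 3, all lower in SFR KO, against 11.9% of all genes apart in that direction. Cdkn1a, an arrest gene that EZH2 silences, was named after its values were seen. It had 70.0, 97.4 and 107 normalized reads in SFR KO and 122, 60.5 and 160.5 in wildtype libraries, with overlapping groups.

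Genes whose values over the 6 libraries were most like those of a member were found among 8923 others averaging 200 or more normalized reads, by the root mean square difference of log2 values centred per gene. For Kmt2d the nearest was Plxnb2, at a distance of 0.0305, where Kmt2d itself spread by 0.209 around its mean. For Dnmt1 it was Zswim8 (0.0187 against 0.141), for Ep300 Ddx59 (0.0196 against 0.145) and for Ezh2 Mark3 (0.00967 against 0.0732). For the other 6 members the nearest genes were Htt (Crebbp), Icosl (Hdac3), Tgfbrap1 (Kdm1a), Plpp6 (Tet2), Med12 (Tet3) and Zfp12 (Arid1a), at distances of 0.0117 to 0.0220. With 6 libraries such likeness is a description of these samples.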

How the data were processed

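Per the submitters' processing notes, STAR 2.5, featureCounts 1.5 and DESeq2 1.14.1 were used with build GRCm38; no source used here gives the annotation release, strand setting or filters. The authors deposited gene read counts divided by a size factor per library as a signal, with their mean. The authors also deposited log2 fold changes and standard errors. Their test statistic is a deposited score. Raw and adjusted p-values were deposited too. Dividing by the value of 1 read in each library gave whole numbers for 100% of values (tolerance 1e-06), and these reads were used in count tests.

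Genes averaging 10 or more normalized reads were tested with limma 3.58.1 (trended eBayes, R 4.3.3) on log2(normalized count + 1), with all 6 libraries and genotype as the factor, and p-values adjusted over 13562 genes. Genotype labels gave the groups, and library numbers follow accession order only. This scale understates changes of low genes. Errors of differences are limma's SE. Alternatives were edgeR 4.0.16 and DESeq2 1.42.0 on recovered reads, pseudocounts of 0.5 and 5, no filter or a minimum of 50, TMM or upper-quartile scaling, a robust prior, sample weights, removal of GC trends (natural spline, 4 degrees of freedom) and each library left out. Removal of length trends was added after seeing the data. GENCODE M21 gave positions, lengths and GC content. The members and lists were chosen with earlier results of these data known. Text names all members, called genes of each list or else the 2 with the smallest p, and the nearest genes by pattern; further genes are marked as chosen later, and 2 genes of the rule are not reported here. On simulated counts for SFR KO against wildtype over 13562 genes, limma recovered 38% of 50 genes changed by a log2 of 0.4 and 74% of 50 changed by 0.7. It also made 13 false calls. Only genes averaging 50 or more were changed. The simulated libraries held no GC or length trend and no library set apart as SFR KO 1 is, so recovery in the real libraries may differ.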

Additional observations from a re-analysis of the deposited data

How the results depend on the processing

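No paired analysis was possible because the labels give no replicate numbers that pair SFR KO with wildtype samples. The number of all genes called by limma was 63 (21 higher, 42 lower). It was 129 with no filter, 98 with a minimum mean of 50, 30 with edgeR, 483 with DESeq2, 161 with a robust prior, 630 with sample weights, 19 with GC trends removed, 140 with length trends removed and 18 with both removed. Leaving out 1 library gave 11 (without SFR KO 2) to 480 (without SFR KO 1). With upper-quartile scaling 23 were higher and 27 lower, and without wildtype 2 the split turned to 15 higher and 11 lower. Members called were 1 in place of 0, in each case Kmt2d, with no filter, DESeq2, a robust prior, sample weights, length trends removed and SFR KO 1 left out, and the range over left-out libraries was 0 to 1. Calls among the other regulators were 2 with no filter, 10 with DESeq2, 3 with a robust prior, 7 with sample weights, 4 with length trends removed, and 0 with GC trends or both trends removed, in place of 1; leaving out 1 library gave 0 to 5. Of 190 member values under the alternatives, 5 changed sign, all for small differences: Ezh2 at 0.0208 and Dnmt1 at 0.0102 with sample weights, Ezh2 at 0.0136 and Dnmt1 at 0.0550 without SFR KO 1, and Ezh2 at 0.0008 without wildtype 2. Over left-out libraries Ezh2 ranged from -0.0899 to 0.0136 and Dnmt1 from -0.1425 to 0.0550. The causes were not tested. Kmt2d ranged from -0.44 to -0.25. With 3 libraries a group, differences as small as those of most members could not be resolved from 0.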
